A study of Mus musculus with 4 samples.

Results

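A set of 10 genes that encode subunits of the Polycomb repressive complexes was examined for Eya1 occupancy in the embryonic mouse kidney. They were taken by name, 10 of 21951 protein-coding gene models, and fall into 5 genes of Polycomb repressive complex 2 (PRC2: Ezh1, Ezh2, Eed, Suz12 and Jarid2) and 5 of Polycomb repressive complex 1 (PRC1: Ring1, Rnf2, Bmi1, Cbx2 and Pcgf2). Eya1, a transcriptional coactivator and phosphatase needed for kidney formation, was pulled down through FLAG from whole kidneys of E13.5 embryos carrying a knockin allele (Eya1 HA-FLAG) on a mixed C57BL/6J and 129/Sv background, with 80 kidneys pooled for an assay. The series comprised 4 samples: 2 Eya1 ChIP replicates, 1 input and 1 IgG control, all from kidneys of that stage. Peak lists of the 2 ChIP replicates were analysed. Whole kidneys mix many cell types, so a peak cannot be assigned to one of them.

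Polycomb complexes keep developmental genes silent. PRC2 methylates histone H3 at lysine 27 through Ezh1 or Ezh2, and PRC1 attaches ubiquitin to histone H2A through Ring1 or Rnf2. In the kidney, Polycomb activity is known for its part in the balance between nephron progenitor self-renewal and differentiation.

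Eya1 peaks lay at the promoters of 9 of the 10 genes, all except Ezh1. A promoter peak is a peak interval that lies within 1 kb of an annotated transcription start site (TSS) of the gene, counted over all its transcripts. Among all protein-coding genes, 23.5% had such a peak in either replicate. Replicate 1 had peaks at 8 of the 10 genes, against 20.2% of all genes, and replicate 2 at 5 of 10, against 14.7%. Both replicates had a promoter peak at 4 genes, Jarid2, Ring1, Rnf2 and Pcgf2, against 11.5% of all genes. Ezh2, Eed, Bmi1 and Cbx2 had peaks in replicate 1 alone and Suz12 in replicate 2 alone. The genes carried 2 to 16 annotated start sites with a median of 7, while the median over all protein-coding genes was 3. With only the 5′ end of each gene counted, the 9 genes were again called, against 21.5% of all genes, but Jarid2 was lost from replicate 2, which left 4 genes in replicate 2 and 3, all of PRC1, in both replicates. No test was made, since genes are not replicates and only 1 condition was profiled.

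The lists of the replicates differed in peak size. Over a whole list, replicate 1 peaks had a median width of 1069 bp and those of replicate 2 had one of 188 bp. Widths are therefore given below with their percentile among the promoter peaks of the same list, 4041 in replicate 1 and 3534 in replicate 2. The lists give positions without counts or scores, so the depth and strength behind a peak are unknown.

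**Figure D1:**
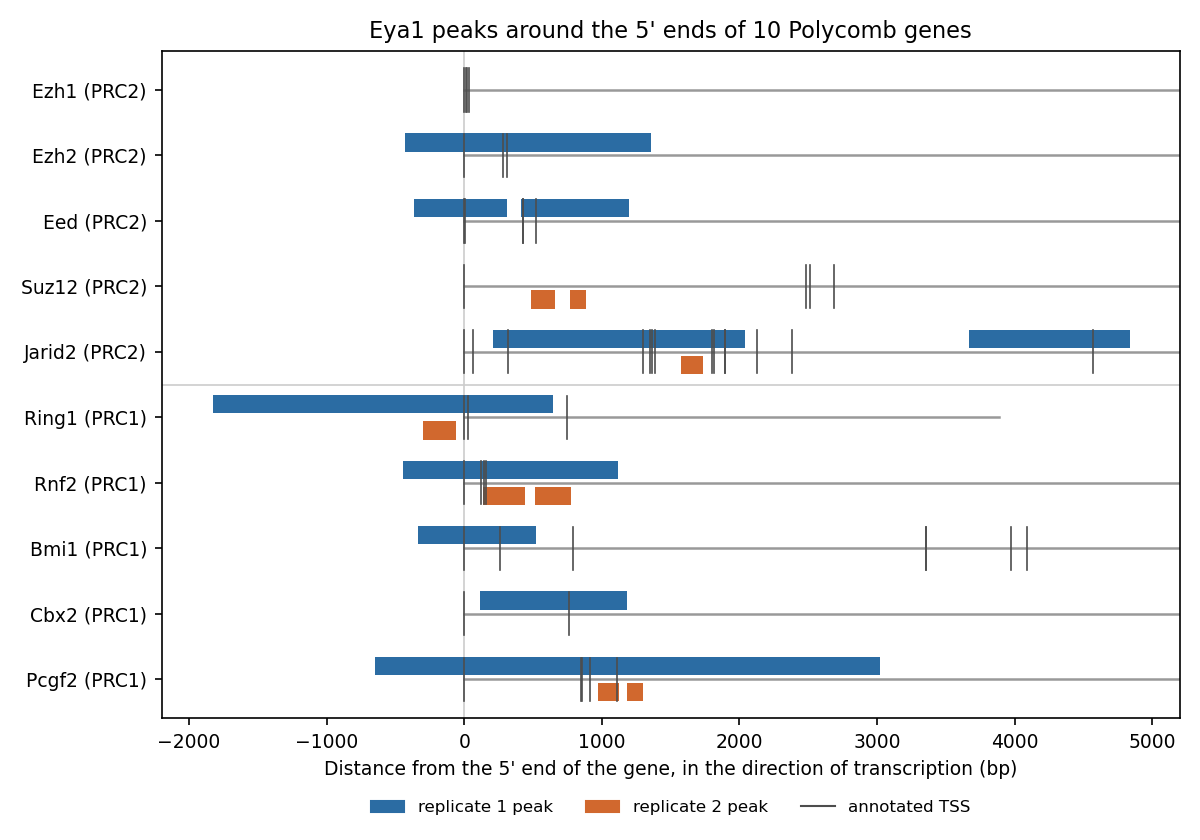
Positions of Eya1 peaks at the 10 genes, drawn to scale in bp from the 5′ end of each gene (0) in the direction of transcription; bars are peaks of replicate 1 (blue) and replicate 2 (orange), the grey line is the gene and vertical ticks are annotated start sites. Ezh1 has no bar, Suz12 has only replicate 2 bars, and every replicate 2 bar at Jarid2, Ring1, Rnf2 and Pcgf2 lies under a wider replicate 1 bar.

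The catalytic subunits of PRC2 differed from each other. Ezh2, the main methyltransferase of dividing cells, spans chr6:47530139-47595341 on the minus strand (mm10). Its replicate 1 peak, chr6:47593988-47595771, was 1784 bp wide, at percentile 86.0, and covered 3 of its 12 start sites. Of this peak, 430 bp lay upstream of the gene, 323 bp in untranslated exon sequence and 1031 bp in introns. Replicate 2 had no peak there, and its nearest peak was 76.975 kb away. Ezh1, the methyltransferase that prevails in non-dividing cells, spans chr11:101191115-101226463 on the minus strand and had no peak in either list at its 9 start sites or anywhere in its 35.349 kb body. The nearest peaks were 74.161 kb away in replicate 1 and 19.653 kb away in replicate 2. The latter, 143 bp wide, lay at the start of Ramp2, which encodes a receptor activity-modifying protein.

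The 200 bp upstream of the 5′ ends of both catalytic genes are shown because one stretch was covered in full by a replicate 1 peak and the other had no peak. They are read on the minus strand of GRCm38 (the assembly of mm10), from chr6:47595342-47595541 and chr11:101226464-101226663. Capitals in all sequences shown mark matches, on either strand, to the 7 short motifs spelled out further on, counted with overlaps.
Ezh2 upstream, within a replicate 1 peak: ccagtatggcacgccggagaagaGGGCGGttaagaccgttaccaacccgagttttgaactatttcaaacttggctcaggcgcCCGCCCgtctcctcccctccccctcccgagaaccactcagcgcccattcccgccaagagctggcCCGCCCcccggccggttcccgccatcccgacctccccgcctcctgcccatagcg
Ezh1 upstream, no peak: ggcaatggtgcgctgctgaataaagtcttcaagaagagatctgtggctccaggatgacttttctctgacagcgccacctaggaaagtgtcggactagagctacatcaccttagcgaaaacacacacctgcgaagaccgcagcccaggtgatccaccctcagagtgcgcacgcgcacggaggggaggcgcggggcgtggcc
The Ezh2 stretch held 18 CpGs and 3 matches to the GC box at a GC content of 66.5%, and the Ezh1 stretch held 13 CpGs and no marked motif at 58.5%.

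Among the structural subunits of PRC2, Eed was covered in replicate 1 and Suz12 in replicate 2. Eed, which binds trimethylated lysine 27 and stimulates the enzyme, spans chr7:89954654-89980983 on the minus strand. Its 2 replicate 1 peaks were neighbours, chr7:89979788-89980568 with 781 bp and chr7:89980677-89981346 with 670 bp, at percentiles 22.2 and 13.9. Together they covered 5 of 10 start sites. The first covered only starts of transcripts not annotated as protein coding. The second also covered start sites of the antisense gene E230029C05Rik, 228 to 260 bp inside Eed. The same start sites lay within 1 kb of the first peak. The lists carry no strand, so neither peak can be assigned to one of these genes. The nearest replicate 2 peak was 149.331 kb away. Suz12, the scaffold that holds the PRC2 core together, spans chr11:79993106-80034123 on the plus strand. It had 2 narrow replicate 2 peaks of 175 and 117 bp, at percentiles 39.7 and 3.01. They lay 484 and 769 bp downstream of the 5′ end and covered none of its 5 start sites. The first was intronic but for 10 bp of coding exon and the second was intronic throughout. The nearest replicate 1 peak was 55.121 kb away, so neither peak at Suz12 had a counterpart in the other list.

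The Suz12 peaks are shown whole because they were the only ones of replicate 2 at these genes that did not overlap a replicate 1 peak. Both are read on the plus strand of GRCm38, at chr11:79993590-79993764 and chr11:79993875-79993991.
Suz12 first peak: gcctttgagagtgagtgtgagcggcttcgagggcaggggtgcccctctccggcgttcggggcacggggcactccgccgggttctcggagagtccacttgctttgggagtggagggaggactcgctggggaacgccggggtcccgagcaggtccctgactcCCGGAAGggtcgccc
Suz12 second peak: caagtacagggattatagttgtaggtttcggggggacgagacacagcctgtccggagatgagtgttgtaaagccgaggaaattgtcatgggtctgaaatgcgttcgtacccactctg
The first peak had a GC content of 69.7% with 15 CpGs and 1 ETS match, and the second had 50.4% with 6 CpGs and no marked motif.

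Jarid2 was the PRC2 gene with peaks in both replicates. Its product is an accessory subunit that contacts nucleosomes and helps to bring PRC2 to its targets, and the gene spans chr13:44729474-44921643 on the plus strand with 16 start sites. Replicate 1 had a peak of 1836 bp at chr13:44729681-44731516 (percentile 87.5), which covered 9 start sites. A further replicate 1 peak of 1170 bp at chr13:44733144-44734313 (percentile 55.6) covered a single start site, that of a transcript without coding sequence, 4566 bp into the gene. The replicate 2 peak, chr13:44731049-44731209, was 161 bp wide (percentile 32.4). It lay in an intron 62 bp from a start site and wholly inside the first replicate 1 peak, of which it covered 8.77%. In both lists the peaks thus sat among internal start sites of the first 5 kb rather than over the 5′ end itself.
Jarid2 replicate 2 peak, plus strand: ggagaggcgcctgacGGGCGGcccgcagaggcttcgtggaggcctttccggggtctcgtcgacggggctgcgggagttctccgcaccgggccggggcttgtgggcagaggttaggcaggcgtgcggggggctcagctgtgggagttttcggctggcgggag
The stretch had a GC content of 72.7% with 17 CpGs and 1 GC box, and is shown because it is the only interval at a PRC2 gene that lies in both lists.

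The catalytic subunits of PRC1, Ring1 and Rnf2, had overlapping peaks in both replicates. Ring1, which encodes a ubiquitin ligase, spans chr17:34020792-34024680 on the minus strand, a gene of 3.889 kb. Its replicate 1 peak, chr17:34024038-34026509, was 2472 bp wide (percentile 96.4), of which 1829 bp lay upstream of the gene. The replicate 2 peak, chr17:34024739-34024982, was 244 bp wide (percentile 63.2), lay 59 bp upstream of the nearest Ring1 start site and was contained in the replicate 1 peak. The replicate 1 peak also covered the starts of the microRNA genes Mir219a-1 and Mir219c and of Gm26940, and lay within 1 kb of a start of H2-Ke6. The first 3 of these genes also had starts within 1 kb of the replicate 2 peak. Neither peak can therefore be assigned to Ring1 alone. Rnf2, which encodes the ligase also called Ring1b, spans chr1:151458004-151500955 on the minus strand. Its replicate 1 peak, chr1:151499839-151501398, was 1560 bp wide (percentile 78.9) and covered 4 of 7 start sites. Replicate 2 had a peak of 301 bp at chr1:151500516-151500816 (percentile 74.4), which covered 2 start sites, and a peak of 264 bp at chr1:151500177-151500440 (percentile 67.8) in the intron that follows. Both were contained in the replicate 1 peak, of which they covered 36.2%, the highest share at these genes. A start of Gm36527, 1370 bp into Rnf2 and on the same strand, lay within 1 kb of each of these peaks. They cannot be assigned to Rnf2 alone either.

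The replicate 2 intervals at the ligase genes are shown because they mark the narrow stretches that both replicates have in common. The first peak at Rnf2 is shown without its untranslated exon part, as chr1:151500516-151500718. All 3 are read on the minus strand of GRCm38.
Ring1 replicate 2 peak: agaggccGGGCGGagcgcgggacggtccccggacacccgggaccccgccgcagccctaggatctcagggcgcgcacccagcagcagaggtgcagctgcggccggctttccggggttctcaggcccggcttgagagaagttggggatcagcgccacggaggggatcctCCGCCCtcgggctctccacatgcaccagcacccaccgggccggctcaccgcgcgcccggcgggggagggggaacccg
Rnf2 replicate 2 peak, part: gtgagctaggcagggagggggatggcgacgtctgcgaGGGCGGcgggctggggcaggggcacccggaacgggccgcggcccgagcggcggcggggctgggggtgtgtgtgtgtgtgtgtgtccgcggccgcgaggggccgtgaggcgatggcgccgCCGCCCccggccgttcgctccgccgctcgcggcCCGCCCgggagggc
Rnf2 second replicate 2 peak: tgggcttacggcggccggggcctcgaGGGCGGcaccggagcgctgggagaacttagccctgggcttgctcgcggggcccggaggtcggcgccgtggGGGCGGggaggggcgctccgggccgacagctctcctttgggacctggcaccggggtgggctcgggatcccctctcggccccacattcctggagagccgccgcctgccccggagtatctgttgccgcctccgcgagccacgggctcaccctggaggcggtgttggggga
GC content was 75.0% at Ring1 and 80.8% and 75.0% at Rnf2. The GC box was matched at 2 places in the Ring1 peak, 3 in the first Rnf2 stretch and 2 in the second.

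Of the PCGF subunits, which pair with Ring1 or Rnf2 in the ligase, the 10 genes include Pcgf2 and Bmi1. These were covered unequally. Pcgf2 (also called Mel18) spans chr11:97688823-97700497 on the minus strand. Its replicate 1 peak, chr11:97697477-97701147, was 3671 bp wide, the widest at the 10 genes and at percentile 99.6. It covered 5 of 7 start sites, with 2419 bp in introns. Replicate 2 had a mostly intronic peak of 152 bp over a start site, chr11:97699373-97699524 (percentile 27.4), and a peak of 117 bp, mostly in untranslated exon sequence, at chr11:97699200-97699316 (percentile 3.01). Both lay inside the replicate 1 peak, of which they covered 7.33%. Bmi1, the other PCGF gene among the 10 and a known repressor of the Cdkn2a locus, spans chr2:18677018-18686629 on the plus strand. It had 1 replicate 1 peak of 859 bp (percentile 28.9), chr2:18676683-18677541, over 2 of 7 start sites. The nearest replicate 2 peak was 4.155 kb away, 121 bp wide, at the start of the neighbouring gene Commd3, where replicate 1 had a separate peak of 1437 bp.
Pcgf2 replicate 2 peak, part without untranslated exon, minus strand, chr11:97699385-97699524: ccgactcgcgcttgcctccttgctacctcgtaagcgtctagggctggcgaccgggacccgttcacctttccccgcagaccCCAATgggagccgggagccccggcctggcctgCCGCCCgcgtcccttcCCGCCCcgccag
Bmi1 upstream, within the replicate 1 peak, plus strand, chr2:18676818-18677017: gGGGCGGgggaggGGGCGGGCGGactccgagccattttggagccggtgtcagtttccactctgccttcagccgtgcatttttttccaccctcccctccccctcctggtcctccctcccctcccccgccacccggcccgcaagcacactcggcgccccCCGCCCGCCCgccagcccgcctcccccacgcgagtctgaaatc
These are shown because the first was covered in both replicates and the second in replicate 1 alone. The Pcgf2 stretch held 2 GC boxes and 1 CCAAT box at a GC content of 72.9%, and the Bmi1 stretch held 5 GC boxes at 72.0%.

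Cbx2, the chromodomain subunit that reads methylated lysine 27 and compacts chromatin, spans chr11:119022962-119031270 on the plus strand and had a peak in replicate 1 alone. The peak, chr11:119023075-119024140, was 1066 bp wide (percentile 47.3) and began 113 bp downstream of the 5′ end. It covered 1 of the 2 start sites, that of a transcript not annotated as protein coding, and 116 bp of it lay in coding exon. Replicate 2 had no peak at either start site or in the gene body.

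**Figure D2:**
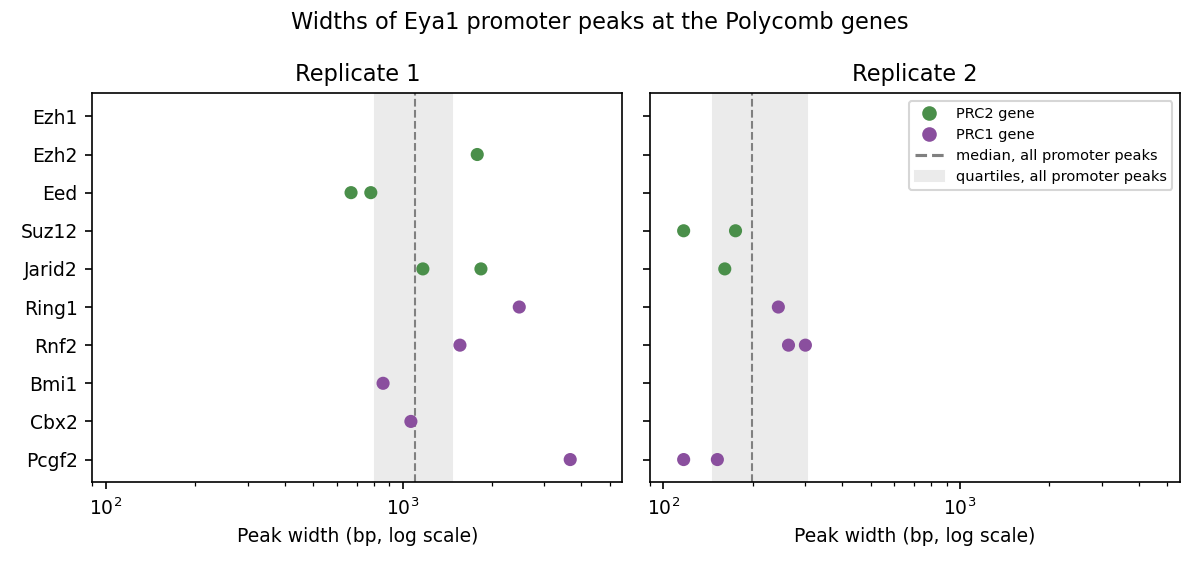
Width in bp (log scale) of each promoter peak at the 10 genes in replicate 1 (left) and replicate 2 (right), with points for single peaks, green for PRC2 and purple for PRC1. Dashed lines mark the median of all promoter peaks of that list, 1099 and 199 bp, and grey bands their quartiles. Pcgf2 with 3671 bp lies farthest right in replicate 1 and Rnf2 with 301 bp in replicate 2.

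Across the 9 genes with peaks, the lists differed in where peaks sat relative to start sites. All 10 replicate 1 peaks covered a start site of their gene, while 2 of 8 replicate 2 peaks did so, at Rnf2 and Pcgf2. In replicate 1, the first Eed peak, the second Jarid2 peak and the Cbx2 peak covered only starts of transcripts not annotated as protein coding. The starts covered in replicate 2, at Rnf2 and Pcgf2, belonged to protein-coding transcripts. Promoter peaks of replicate 1 were wider over the whole list, with a median of 1099 against 199 bp. The share of all promoter peaks that covered a start site was not computed. Of the 8 replicate 2 peaks, 7 had their midpoint downstream of the 5′ end of the gene, as did 8 of the 10 in replicate 1. Intron made up 50.3% of the bases of the replicate 1 peaks and 69.0% of those of replicate 2. Sequence upstream of the gene made up 25.5% and 15.9%. Coding exons held 1.94% and 0.653%. The midpoint positions and these base shares were not computed over all promoter peaks, so they are not known to be particular to these genes. Of the 8 replicate 2 peaks, 6, at Jarid2, Ring1, Rnf2 and Pcgf2, lay wholly inside a replicate 1 peak. Over all genes, 3227 had a replicate 2 promoter peak and 2520 had one in both replicates, so shared calls were common beyond these genes. The share of all replicate 2 promoter peaks lying inside a replicate 1 peak was not computed. Suz12, Rnf2 and Pcgf2 had 2 replicate 2 peaks each, 3 of 10 genes against 2.71% of all genes. Among the 3227 genes with a replicate 2 promoter peak, 595 had 2 or more. At Suz12 and Pcgf2, 1 of the peaks was 117 bp wide, the smallest width in the replicate 2 list. No gene had a peak in its body farther than 1 kb from its start sites in either list, and 1.97% of all genes had one.

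PRC1 and PRC2 genes were set side by side for calls and for widths. Either replicate had a promoter peak at 5 of 5 PRC1 genes and 4 of 5 PRC2 genes. Both replicates had one at 3 PRC1 genes and 1 PRC2 gene, Jarid2, whose replicate 2 peak was not within 1 kb of the 5′ end itself. Replicate 1 called 5 PRC1 and 3 PRC2 genes, and replicate 2 called 3 and 2. The groups thus differed by 1 or 2 genes in each count. In replicate 1 the 5 PRC1 peaks were 859 to 3671 bp wide with a median of 1560 bp, and the 5 PRC2 peaks, at 3 genes, were 670 to 1836 bp wide with a median of 1170 bp. The PRC2 median was lower, with a difference of -390 bp (PRC2 minus PRC1), and the ranges overlapped. In replicate 2 the 5 PRC1 peaks were 117 to 301 bp wide with a median of 244 bp, and the 3 PRC2 peaks were 117 to 175 bp wide with a median of 161 bp. The difference was -83 bp and these ranges overlapped as well. The PRC2 median over peaks was thus the lower one in each list. Groups held 3 to 5 peaks, several of them from the same gene. In replicate 1 this order depended on counting peaks rather than genes. The widest peaks of its PRC2 genes were 1784 bp (Ezh2), 781 bp (Eed) and 1836 bp (Jarid2). Their middle value, 1784 bp, lay above the PRC1 median of 1560 bp, where each gene had 1 peak.

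**Figure D3:**
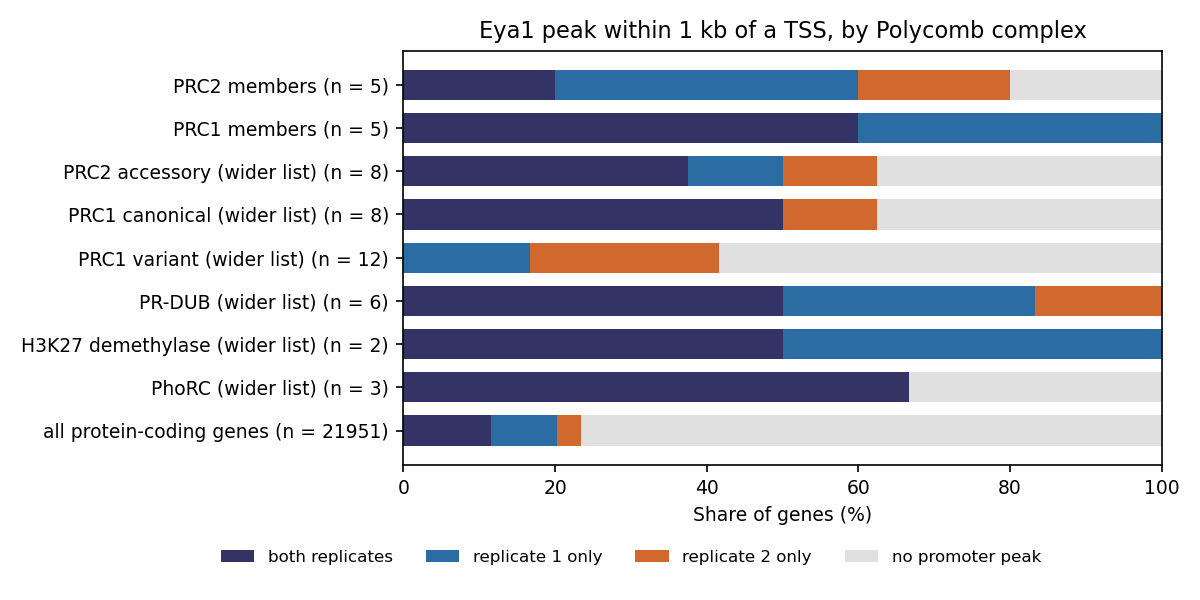
Share of genes (%) with a promoter peak in both replicates, in replicate 1 only, in replicate 2 only or in neither (stacked bars from 0), for the 5 PRC2 and 5 PRC1 genes (members), the roles of the wider Polycomb list and all 21951 protein-coding genes. The PRC1 genes divide into 3 with peaks in both replicates and 2 in replicate 1 only, and the PRC2 genes into 1 in both, 2 in replicate 1 only, 1 in replicate 2 only and 1 in neither.

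Of 39 further genes of the Polycomb system, 25 had a promoter peak in either replicate, 19 in replicate 1, 19 in replicate 2 and 13 in both, beside the shares of all genes given above. The 13 with peaks in both lists were Rbbp4, Rbbp7, Lcor, Cbx6, Phc2, Phc3, Scmh1, Bap1, Asxl1, Asxl3, Kdm6a, Yy1 and Sfmbt1. Of these, Rbbp4 and Rbbp7 encode the histone-binding subunits of PRC2, and Phc2 and Phc3 encode the Polyhomeotic subunits of PRC1. Promoter peaks of replicate 1 alone were at Mtf2, L3mbtl2, E2f6, Foxk1, Foxk2 and Kdm6b. At Kdm6b, replicate 2 had a peak of 253 bp in the gene body, and 1 replicate 2 peak farther than 1 kb from its start sites overlapped the replicate 1 promoter peak. Promoter peaks of replicate 2 alone were at Aebp2, Phc1, Pcgf3, Yaf2, Kdm2b and Asxl2. Neither list had a promoter peak at Phf1, Phf19, Epop, Cbx7, Cbx8, Scml2, Pcgf1, Pcgf5, Pcgf6, Rybp, Bcor, Bcorl1, Mga or Sfmbt2.

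By role, peaks in both replicates were found at 4 of 8 genes of canonical PRC1, the form with Cbx and Phc subunits, and at 0 of 12 genes of variant PRC1, the form with Rybp or Yaf2, against 11.5% of all genes. In either replicate the counts were 5 of 8 and 5 of 12, against 23.5% of all genes. PRC2 accessory genes had 5 of 8 in either replicate and 3 in both. The PR-DUB genes, whose complex removes the ubiquitin that PRC1 attaches, had 6 of 6 in either replicate and 3 in both. Both H3K27 demethylase genes had a peak in either replicate, with Kdm6a covered in both, and 2 of 3 PhoRC genes had peaks in both. The widest replicate 1 peaks of each role were 2351 bp at Kdm6b (percentile 95.4), 2106 bp at Cbx6 (93.0), 2000 bp at Yy1 (91.1), 1437 bp at Rbbp4 (73.6), 925 bp at Asxl3 (35.1) and 878 bp at E2f6 (30.6). Kdm6b removes methyl groups from lysine 27, and its peak reached to 436 bp from a start site without covering one. At some of the further genes another gene also started within 1 kb of the promoter peaks. Examples are Npcd at Cbx6, Gm34220 at Yy1, Zbtb8os at Rbbp4 and Phf7 at Bap1. Such peaks cannot be assigned to the Polycomb gene alone.

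The promoter sequences of the core genes were compared with those of all genes. RefSeq promoter windows (GRCm38), which run from 250 bases before to 50 after a gene start, were matched for 9 of the 10 genes (not Cbx2), with 2 windows for Jarid2. A RefSeq start can differ from the 5′ end of the gene model, so a window need not be the upstream stretch shown above. A peak of either replicate overlapped 8 of these 10 windows, against 13.1% of 32851 windows in all. Windows were called CpG-rich at a GC content of at least 50% and an observed to expected CpG ratio of at least 0.6, and 9 of the 10 passed. Of all CpG-rich windows, 34.1% were overlapped by a peak. The median ratio was 0.820 over the windows of the Polycomb genes, 0.854 over all windows with a peak and 0.384 over all windows. CpG content thus moved with peak calls across all genes, and its part in the calls at the Polycomb genes was not tested. The window without a peak at Ezh1 had a ratio of 0.882 with 23 CpGs, and that at Suz12, whose peaks lay downstream of it, had 1.09 with 41 CpGs. Pcgf2, with the widest peak, had the lowest ratio of 0.362 with 10 CpGs. Its window lay inside the replicate 1 peak and overlapped no replicate 2 peak. The Pcgf2 stretch shown above, covered in both replicates, had a ratio of 0.912 with 16 CpGs.

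**Figure D4:**
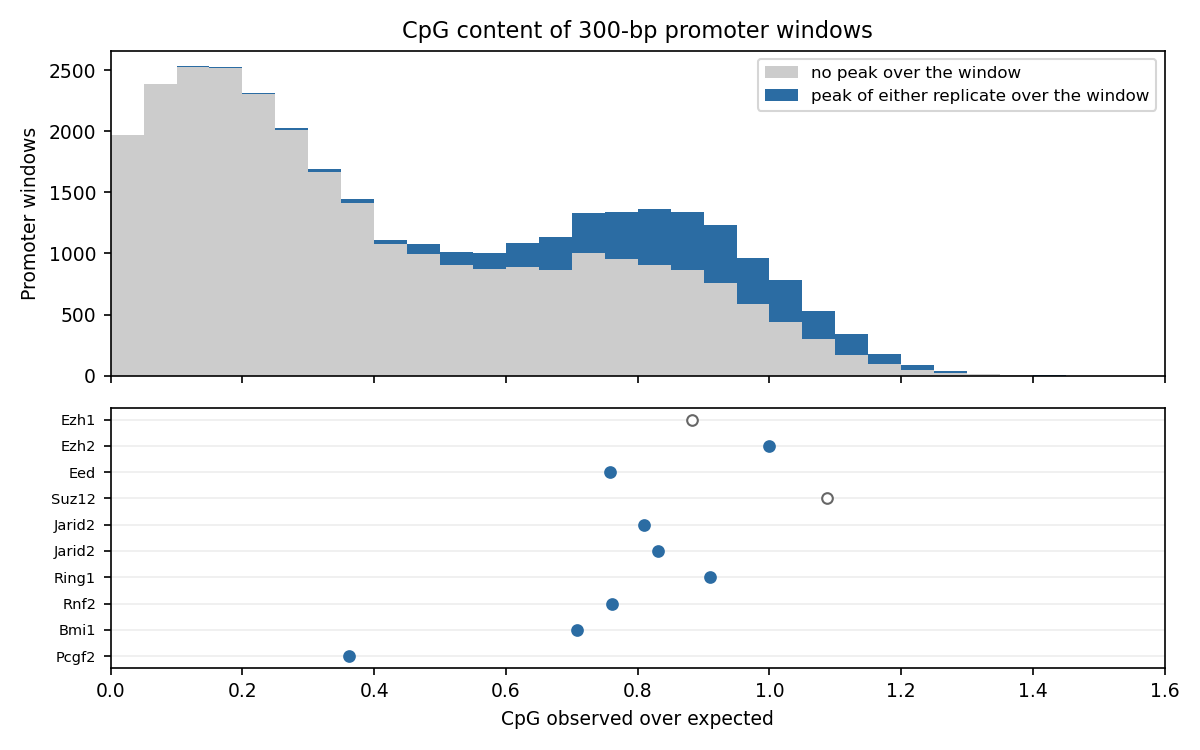
Observed to expected CpG ratio (horizontal axis) of RefSeq promoter windows of 300 bp. The upper part gives the number of windows per bin, stacked from 0, without a peak (grey) and with a peak of either replicate (blue), and the lower part gives the 10 windows of the Polycomb genes, filled where a peak overlapped. Suz12 (1.09) and Ezh1 (0.882) are open, and Pcgf2 (0.362) is filled and lies lowest.

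Both strands of the same windows were searched for 8 motifs. The GC box GGGCGG, which SP factors bind, was present in 7 of the 10 windows, at Suz12, Jarid2 (both), Ring1, Rnf2, Bmi1 and Pcgf2, against 35.7% of all windows. Of the 10 windows 9 were CpG-rich, against 10995 of all 32851. The share of CpG-rich windows with the GC box was not computed. The CCAAT box CCAAT, which NF-Y binds, was present in 5 windows, against 37.4% of all. These 5 were at Ezh2, Eed, Suz12 and Jarid2 (both), all PRC2 genes. The window of the PRC2 gene Ezh1 and those of Ring1, Rnf2, Bmi1 and Pcgf2 had no match. Cbx2 had no window, and a replicate 2 peak at Pcgf2 did hold a CCAAT box. With so few windows, these counts do not separate the complexes. The E-box CACGTG was present at Bmi1 and Pcgf2, against 7.15% of all windows. The ETS motif CCGGAAG (8.86% of all windows), the NRF1 motif GCGCATGC (2.71%), the YY1 motif AAGATGGC (2.75%) and the CRE TGACGTCA (1.79%) had no match in the 10 windows. RE1, the element of the repressor REST, had 1 match with at most 2 mismatches, at Ring1, against 2.84% of all windows. A match describes the letters of the window and is no measurement of binding.

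In 200-bp windows on the midpoints of the 8 replicate 2 peaks, the GC box was present in 6, against 53.2% of all replicate 2 promoter peaks. The 6 were the peaks at Jarid2, Ring1, Rnf2 and Pcgf2 that lay inside replicate 1 peaks, and the Suz12 pair had no GC box. In windows on the 10 replicate 1 peaks it was present in 6, against 52.4%. One Suz12 peak held the ETS motif, against 5.01% of all replicate 2 promoter peaks. The YY1 motif was present in 1 replicate 2 window, at Pcgf2 (2.55% of all), and in 1 replicate 1 window, also at Pcgf2 (2.72%). The windows of both replicates at Pcgf2 overlapped, so these matches may be the same site. The CCAAT box was present in 1 replicate 2 window, at Pcgf2 (8.32%), and in 2 replicate 1 windows, at Eed and Jarid2 (11.0%). The NRF1 motif was present in 1 replicate 1 window, at Cbx2 (1.06%). The RE1 match at Ring1 lay at chr17:34024822-34024838 on the minus strand, -150 bp from the 5′ end and 30.5 bp from the midpoint of the replicate 2 peak, and 6.31% of all replicate 2 promoter peaks held one. Its 17 bases have the 2 mismatches to the consensus in lower case here.
Ring1 RE1 match: aTCAGCGCCACGGAGgG
The share with the GC box at these peaks is to be read beside the share over all promoter peaks of the same list, which was above 50% in both.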

How the data were processed

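Eya1 ChIP-seq was carried out on E13.5 mouse kidneys in 2 replicates with 1 input and 1 IgG control. The authors aligned reads to mm10 and called peaks with MACS, with input or IgG as control and more than 1 P value cutoff. For its own analyses the paper kept the peaks shared by the input and IgG calls. The lists used here, of 4277 peaks in replicate 1 and 4175 in replicate 2, were not compared with that set. The methods name Bowtie as the aligner, whereas the submitters' processing notes name HISAT2 and mm10. The deposited lists give the chromosome, start and end of each peak in 3 columns, with no score, count or depth. Which cutoff and control made each list is not given in the sources used here, so the number and width of peaks may depend on them. Input and IgG were not analysed here. The labels do not say whether the replicates came from separate collections.

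Peaks were set against GENCODE M21 gene models (GRCm38), with 1-based coordinates. All 49 genes matched by symbol. A promoter peak lay within 1 kb of any TSS of the gene, and peaks of both replicates were shared at an overlap of at least 1 bp. Calls over all genes were recomputed with bedtools 2.31.1, which gave equal counts, 4444 genes in replicate 1 and 3227 in replicate 2. On simulated peaks, planted calls were checked. Sequences were read from GRCm38, promoter windows from RefSeq on the same build. Motifs were searched on both strands, in whole windows or in 200 bp on peak midpoints, and RE1 allowed 2 mismatches. Scripts ran in Python 3.11.15 with matplotlib 3.10.9 for plots, pysam 0.24.0 for sequence, and pandas 2.3.3, scipy 1.17.1 and numpy 2.4.6 for tables.

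The 10 genes and the 39 further Polycomb genes were chosen with earlier results of these data known, and all are named. One further gene of the planned list is not reported here. Of the 39, peak values are given for the widest replicate 1 peak of each role. H2-Ke6, Ramp2, Commd3, Npcd, Gm34220, Zbtb8os and Phf7, and the count of genes with 2 or more replicate 2 peaks, were chosen with their values in view. No test was made, because 1 condition was profiled and genes are not replicates. Alternatives were TSS windows of 500 bp and 3 kb, the 5′ end alone, protein-coding transcripts alone, a stricter overlap, wide peaks alone, distance from the peak midpoint and each replicate left out.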

Additional observations from a re-analysis of the deposited data

How the results depend on the processing

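The promoter calls depended on peak width and on the list used. With only the peaks no narrower than their list's median width, either replicate called 5 of the 10 genes, replicate 1 called 5 (Ezh2, Jarid2, Ring1, Rnf2 and Pcgf2), replicate 2 called 2 (Ring1 and Rnf2) and both called 2. PRC2 then had 2 genes, PRC1 3 and the 39 further genes 15, and 3 replicate 2 peaks overlapped a replicate 1 peak. The shares of all protein-coding genes under this filter were not computed. The shares given for all peaks are therefore not a comparison for these counts. The median width in replicate 2 was then 264 bp and the PRC2 minus PRC1 difference in replicate 1 was -688 bp. No PRC2 peak was left in replicate 2, so that difference could not be given. With 1 replicate left out, the called genes numbered 5 to 8 of the 10, 2 to 3 of PRC2 and 3 to 5 of PRC1, the lower values without replicate 1. Where the overlap had to cover 50% of both peaks, 0 replicate 2 peaks were shared, since they were much narrower. Gene-body peaks away from start sites numbered 1 with a 500 bp window (Suz12), 3 with the 5′ end alone (2 at Jarid2, 1 at Pcgf2) and 1 with protein-coding transcripts alone (Jarid2). The other 79 of 96 alternative values stayed within 1.5 times the value given, and 0 reversed. Counting only the widest peak per gene, which changed the order of the replicate 1 widths, was not among these alternatives. No paired analysis was possible because a single condition has peak lists. Without counts, neither depth nor strength of a peak is known.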
